A study of Arabidopsis thaliana with 2 samples.

Results

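The genes described here are 47 nuclear genes of *Arabidopsis thaliana* for the light-harvesting antenna, both photosystems, and the carbon-fixing enzyme Rubisco. They were chosen by name, as a list of loci for 6 antenna genes of photosystem I (LHCI), 9 genes of the major antenna of photosystem II (LHCII), 5 genes of the minor antenna, 4 Rubisco small subunits, Rubisco activase, 10 subunits of photosystem II and 12 of photosystem I. The rule names loci and no threshold, but the list was drawn up with earlier results of these data known. They are 47 of the 17419 loci listed as expressed in at least 1 replicate.

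The study sequenced the poly(A) RNA of central cells, which lie in the embryo sac beside the egg and form the endosperm once fertilized. Wild-type plants of the accession Landsberg *erecta* were used, flowers were emasculated and fixed when the female gametophyte was mature, and the cells were cut from sections by laser-assisted microdissection (LAM). There were 2 biological replicates, CC1 and CC2, each a pool of about 450 cells, and there was no other cell type, treatment or time point. The comparisons below are therefore between genes and between the replicates, and no p-value was computed.

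The proteins of these genes are made in the cytosol and imported into plastids, where they assemble with subunits that the plastid genome encodes. Antenna proteins bind chlorophyll and pass the absorbed energy to the reaction centers. Photosystem II splits water, photosystem I reduces ferredoxin, and Rubisco, with its plastid-encoded large and nuclear-encoded small subunit, fixes carbon dioxide. In leaves, these genes are among the most strongly transcribed of the nuclear genome and are induced by light.

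The values are hits, that is, alignments weighted so that a read with several alignments counts once. CC1 held 15257122 hits at 14454 listed loci and CC2 held 14857500 hits at 16391 loci. Levels are given as hits per 1000000 listed hits of a replicate (HPM), and, where genes are set beside each other, as HPM per kb of the longest annotated transcript. The coverage leaned to the 3′ ends of transcripts, so that the second scale favors short transcripts, and both are given. All 6 central cell markers were listed in both replicates, with 1573 HPM in CC1 and 1302 HPM in CC2 in all, and FWA (381 HPM on average) and FIS2 (301 HPM) led them. Markers of the neighboring egg cell were also present, all 5 of 5, with 1355 and 902 HPM, led by EC1.1 (842 and 606 HPM) and EC1.5 (261 and 138 HPM). Of 4 synergid markers, LURE1.3 (90.3 and 406 HPM) and LURE1.2 (49.8 and 229 HPM) were listed in both and over 4-fold higher in CC2, and MYB98 was listed in neither. Their sum was 140 HPM in CC1 and 636 HPM in CC2. Ovule tissue markers were low, with 3 of 8 listed in both, sums of 21.6 and 30.5 HPM, and INO, BEL1 and ANT unlisted. SHP1 had 228 and 59 hits, TT4 30 and 170, and BAN 72 and 17, while STK (172 hits, 11.6 HPM) and SHP2 (35 hits) were listed in CC2 only. Of 5 pollen and sperm markers, a LAT52-like gene alone was listed in both, with 37 and 14 hits, and the sums were 5.31 and 0.942 HPM. The part of neighboring cells in the levels below was not tested. In a pool of cells, fewer cells of a type and less RNA per cell cannot be told apart.

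All 47 genes were listed in both replicates, whereas 47.2% of the 27444 nuclear protein-coding loci of the annotation were. Together they took 186482 hits in CC1 (1.22% of all) and 184433 hits in CC2 (1.24%). Their median level was 200.6 HPM, against 21.7 HPM over the 13426 loci listed in both replicates. Per kb of transcript, the median was 195 HPM against 12.7 HPM over the 12944 nuclear protein-coding loci listed in both. The genes spanned a wide range, from LHCA6 with 3.52 HPM to RBCS1A with 1039 HPM. Of the nuclear protein-coding loci ranked by hits (13849 in CC1 and 15693 in CC2), the first 1000 held 27 of the genes in CC1 and 30 in CC2, and the first 100 held 1 and 2. In the ranking per kb, 30 of the 47 were among the first 1000 loci and none was among the first 100. As the plot of the levels by complex shows, the lowest genes belonged to LHCI, LHCII, Rubisco and photosystem II.

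**Figure D1:**
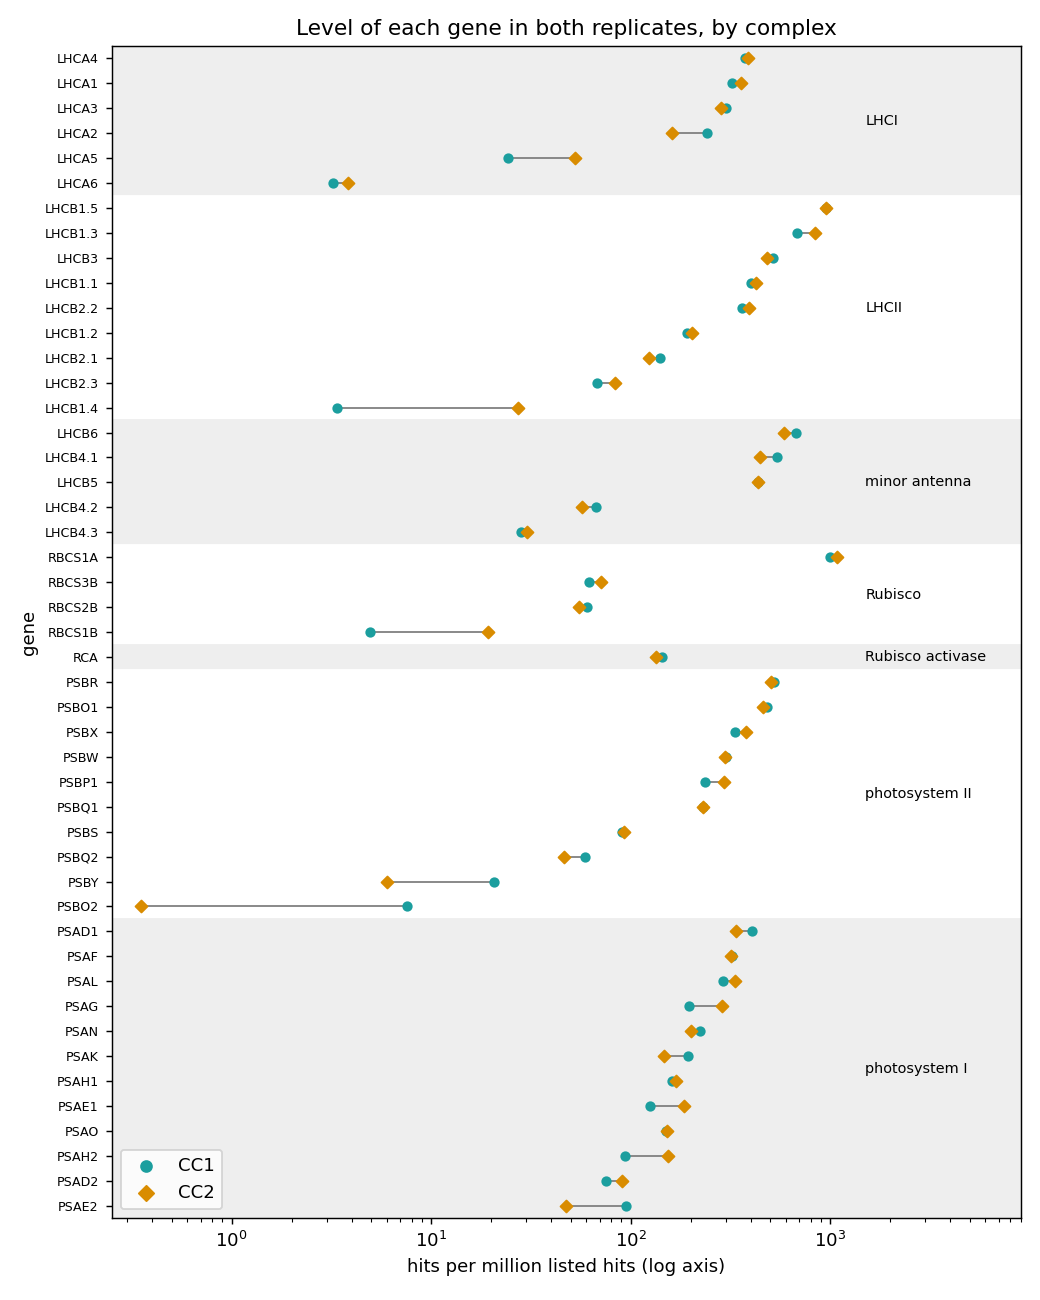
Level of each of the 47 genes in CC1 (circles) and CC2 (diamonds) in hits per 1000000 listed hits on a log axis, with a line joining the replicates and shading by complex. Most pairs lie close together, and wide pairs such as LHCB1.4 (3.38 and 27.1 HPM) and PSBO2 (7.59 and 0.349 HPM) are genes with few hits.

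The genes lay on all 5 nuclear chromosomes (18 on chromosome 1, 9 on 2, 7 on 3, 6 on 4 and 7 on 5). Their transcripts were shorter than those of all nuclear protein-coding loci listed in both, with a median of 1210 bp against 1712 bp, and they had fewer exons, with a median of 3 against 5. Of the 47, 10 had 1 exon, among them all 5 LHCB1 genes. Some lie side by side. LHCB1.1, LHCB1.2 and LHCB1.3 fill 6835 bp of chromosome 1 (chr1:10472280-10479114), and RBCS1B, RBCS2B and RBCS3B fill 8333 bp of chromosome 5 (chr5:15376988-15385320, coordinates of TAIR10.1).

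Sequence sets a limit on what can be said about single paralogs, since a read of 50 bases can fit more than 1 of them. In windows of that length with up to 2 mismatches, 23 of the 47 genes matched another of them somewhere, and 10 matched over more than 25% of their transcript. Those 10 were the 5 LHCB1 genes, LHCB2.1, LHCB2.2, RBCS1B, RBCS2B and RBCS3B. In addition, 18 genes were overlapped by another annotated locus, 17 of them on the other strand and 10 by at least 100 bp, and the libraries were not stranded. Among them, LHCB6, PSAE1 and PSAG were overlapped on the other strand over 358, 436 and 479 bp by loci unlisted in both replicates. The authors counted hits at TAIR10 loci, whereas these overlaps are from the RefSeq annotation of TAIR10.1. A locus absent from TAIR10 would be unlisted at any level, and this was not examined. NRPA2 overlaps LHCB1.3 on the other strand over 108 bp, with 324 hits in CC1 and 1193 in CC2. Likewise, ATM2 overlaps LHCB3 over 186 bp (550 and 325 hits), and AT1G15810 overlaps LHCB6 over 103 bp (382 and 463 hits). For the near-identical genes the authors' rule of sharing out ambiguous hits sets part of the value. The last 120 coding bases show how alike the clustered Rubisco genes are. They are given here from the TAIR10.1 genome with the positions that vary among the 3 genes in capitals. Here and below, the letters are those of this reference genome, and differences from it in Landsberg *erecta* were not examined.
RBCS1B (chr5:15384350-15384469, minus strand): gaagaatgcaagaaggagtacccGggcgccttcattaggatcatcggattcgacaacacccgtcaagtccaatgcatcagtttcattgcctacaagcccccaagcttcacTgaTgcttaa
RBCS2B (chr5:15381203-15381322, minus strand): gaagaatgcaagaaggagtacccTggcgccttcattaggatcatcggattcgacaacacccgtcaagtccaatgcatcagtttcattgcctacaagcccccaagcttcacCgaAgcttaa
RBCS3B (chr5:15377501-15377620, minus strand): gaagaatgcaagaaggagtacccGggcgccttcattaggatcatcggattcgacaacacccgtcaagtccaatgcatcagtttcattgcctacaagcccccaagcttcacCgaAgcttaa
The 3 sequences differed at 3 positions and were identical over a run of 86 bases, longer than a read. RBCS2B and RBCS3B were 99.2% identical, and RBCS1B was 97.5% identical to RBCS2B and 98.3% to RBCS3B. The coding end is not the end of the transcript, and RBCS1B is annotated on to chr5:15383167. In the last 500 bases of the longest transcript, 0% of the RBCS1B windows matched another of the 47 genes with up to 2 mismatches. For RBCS2B and RBCS3B it was 35.25% and 28.16%.

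The major LHCII antenna had the largest sum of any complex, 3325 HPM in CC1 and 3527 HPM in CC2 (3426 ± 142, SD, n = 2). Its LHCB1 and LHCB2 proteins form the trimers that move between the photosystems, and LHCB3 (AT5G54270) sits in trimers bound to photosystem II. LHCB1.5 (AT2G34420) had 954 HPM in both replicates. Per kb of the longest transcript it was the highest of the 47 genes, with 913 HPM in CC1 and 912 in CC2, but per kb of coding length (1195 HPM on average) it came after RBCS1A (AT1G67090, 1914 HPM) and PSBR (AT1G79040, 1212 HPM). All 1045 bp of LHCB1.5 are overlapped on the other strand by the noncoding RNA gene AT2G08665, unlisted in both replicates. Whether that gene was among the TAIR10 loci that the authors counted was not examined. RWA3, also on the other strand, overlaps 99 bp and had 457 and 293 hits. The unstranded hits of LHCB1.5 cannot be assigned to a strand. LHCB1.3 (AT1G29930) followed within the family, with 685 HPM in CC1 and 837 HPM in CC2, or 557 and 680 HPM per kb. The ranges of these paralogs did not overlap. LHCB1.1 (AT1G29920) had 401 and 427 HPM (305 and 325 per kb), and LHCB1.2 (AT1G29910) had 191 and 202 HPM (156 and 165 per kb). LHCB1.2 and LHCB1.3 shared 51.1% of the windows of LHCB1.2, and all of these values are estimates for that reason. As a family, LHCB1 had 2235 HPM in CC1 and 2446 HPM in CC2, a sum that sharing among its members does not change.

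LHCB1.4 (AT2G34430) stood apart from the other LHCB1 genes. It had 51.6 hits (3.38 HPM) in CC1 and 403 hits (27.1 HPM) in CC2, and was 8.02-fold higher in CC2. It lies next to LHCB1.5 on chromosome 2, in the opposite orientation and with 1038 bp between the annotated starts. In CC1 it ranked 12014 of 13849 nuclear protein-coding loci and LHCB1.5 ranked 104. The ends of the coding sequences are given with the positions that differ in capitals, to show how far reads could separate this pair.
LHCB1.5 (chr2:14522716-14522835, minus strand): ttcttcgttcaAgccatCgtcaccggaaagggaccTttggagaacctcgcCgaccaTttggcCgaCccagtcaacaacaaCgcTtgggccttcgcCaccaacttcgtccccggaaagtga
LHCB1.4 (chr2:14525499-14525618, plus strand): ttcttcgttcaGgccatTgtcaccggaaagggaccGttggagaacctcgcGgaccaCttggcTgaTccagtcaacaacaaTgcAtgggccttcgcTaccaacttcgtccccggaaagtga
The sequences differed at 10 of 120 positions (91.7% identity), with no identical run longer than 24 bases, so that most reads of this stretch would cross several differences. Over the whole transcript, 33.9% of the windows of LHCB1.4 matched another of the 47 genes with up to 2 mismatches. For LHCB1.5 it was 48.7%, and 42.8% of its windows matched LHCB1.4. In the last 500 bases, 14.6% of the LHCB1.4 windows and 39.5% of the LHCB1.5 windows matched another of the 47 genes. The part of shared hits in the LHCB1.4 values was not tested. LHCB1.4 took 0.151% of the LHCB1 hits in CC1 (95% Wilson interval 0.116 to 0.200%) and 1.11% in CC2 (1.01 to 1.22%). Such intervals cover counting error only, and neither amplification nor the sharing of hits.

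The 250 bases before the annotated start of each of these neighbors are also given. Capitals mark matches to the motifs described further below.
LHCB1.5 (chr2:14523569-14523818, minus strand): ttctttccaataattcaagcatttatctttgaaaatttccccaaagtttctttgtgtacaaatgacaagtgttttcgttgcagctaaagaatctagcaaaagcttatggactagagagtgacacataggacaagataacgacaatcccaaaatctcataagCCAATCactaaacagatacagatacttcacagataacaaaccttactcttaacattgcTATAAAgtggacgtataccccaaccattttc
LHCB1.4 (chr2:14524357-14524606, plus strand): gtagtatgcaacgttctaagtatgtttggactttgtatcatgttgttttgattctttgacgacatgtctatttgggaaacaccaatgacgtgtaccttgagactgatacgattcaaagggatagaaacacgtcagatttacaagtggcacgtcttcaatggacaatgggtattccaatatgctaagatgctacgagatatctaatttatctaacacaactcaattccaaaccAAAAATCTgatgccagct
The LHCB1.5 stretch held CCAATC, a motif bound by the GOLDEN2-LIKE (GLK) factors of chloroplast development, with its first base 89 bases before the start, and TATAAA with its first base 31 bases before it. The LHCB1.4 stretch held AAAAATCT, a binding site of the clock factor CCA1, with its first base 18 bases before the start, and no TATAAA. These are matches of letters and not measured binding.

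LHCB2.2 (AT2G05070) led the LHCB2 genes, with 364 HPM in CC1 and 392 HPM in CC2. LHCB2.1 (AT2G05100) had 140 and 123 HPM and LHCB2.3 (AT3G27690) had 68.2 and 83.1 HPM. Per kb the order was the same, with 318 and 343 for LHCB2.2, 99.9 and 87.5 for LHCB2.1, and 46.5 and 56.7 for LHCB2.3, and no ranges overlapped. LHCB2.1 and LHCB2.2, 22517 bp apart on chromosome 2, shared 58.0% of the windows of LHCB2.2. LHCB2.3, on chromosome 3, shared 2.05% of its windows, but 595 bp of it lie under a gene on the other strand, which had no listing in CC1 and 180 hits in CC2. LHCB3 is a single gene, with 518 HPM in CC1 and 482 HPM in CC2 (417 and 388 per kb).

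The minor antenna proteins are single chlorophyll proteins between the LHCII trimers and the core of photosystem II. They summed to 1740 HPM in CC1 and 1558 HPM in CC2 (1649 ± 129, SD, n = 2). LHCB6 (AT1G15820) had 671 and 590 HPM and LHCB5 (AT4G10340) had 436 and 435 HPM. LHCB4 is encoded by 3 genes, of which LHCB4.1 (AT5G01530) had 539 HPM in CC1 and 445 HPM in CC2, LHCB4.2 (AT3G08940) had 67.2 and 57.2 HPM, and LHCB4.3 (AT2G40100) had 28.1 and 30.1 HPM. LHCB4.1 thus took 85.0% of the family's hits in CC1 and 83.6% in CC2, and its windows hardly matched the others (0.371%). The 3 minor antenna proteins were close in level: per kb and with paralogs summed, the highest was 1.77 times the lowest in CC1 and 1.56 times in CC2.

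The antenna of photosystem I summed to 1266 HPM in CC1 and 1246 HPM in CC2 (1256 ± 13.8, SD, n = 2). LHCA1 (AT3G54890) and LHCA4 (AT3G47470), which pair in the antenna belt, had 322 and 359 HPM, and 375 and 386 HPM, in CC1 and CC2. The other pair of the belt was formed by LHCA3 (AT1G61520), with 301 and 285 HPM, and LHCA2 (AT3G61470), with 240 HPM in CC1 and 161 HPM in CC2. LHCA2 was lower than the other 3 per kb in both replicates (171 and 114, against 212 to 299). LHCA5 (AT1G45474) and LHCA6 (AT1G19150) link photosystem I to the NAD(P)H dehydrogenase-like complex and occur in small amounts in leaves. LHCA5 had 372 hits (24.4 HPM) in CC1 and 785 hits (52.8 HPM) in CC2 and was 2.17-fold higher in CC2. It is overlapped over 192 bp by AT1G45545 on the other strand, whose hits went the other way, from 71.1 in CC1 to 27.4 in CC2. LHCA6 had 49 and 57 hits (3.21 and 3.84 HPM). Per kb, the highest LHCI gene was 104.8 times the lowest in CC1 and 90.5 times in CC2.

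Of the Rubisco small subunits, RBCS1A carried most of the hits. It had 1001 HPM in CC1 and 1077 HPM in CC2, ranked 99 and 82 among nuclear protein-coding loci, and took 88.7% and 88.1% of the family. Per kb of the longest transcript (790 and 850 HPM) it was below LHCB1.5 alone among the 47 genes, and per kb of coding length (1914 ± 99.2 HPM, SD, n = 2) it was above all of them. The clustered genes were lower, with 60.4 and 55.1 HPM for RBCS2B (AT5G38420) and 61.6 and 70.6 HPM for RBCS3B (AT5G38410). RBCS1B (AT5G38430) had 75.3 hits (4.94 HPM) in CC1 and 287 hits (19.3 HPM) in CC2 and was 3.91-fold higher in CC2. Given the shared run in the sequences above, the split among these 3 genes rests on the few positions that differ and on the rest of the transcripts. The longest annotated transcript of RBCS1B, 1894 bp, was also far longer than that of RBCS2B (935 bp), which lowers its value per kb. The family sum was 1128 HPM in CC1 and 1222 HPM in CC2. Rubisco activase (RCA, AT2G39730), which frees the active site of bound sugar phosphates, had 143 and 134 HPM, or 72.1 and 67.5 HPM per kb.

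**Figure D2:**
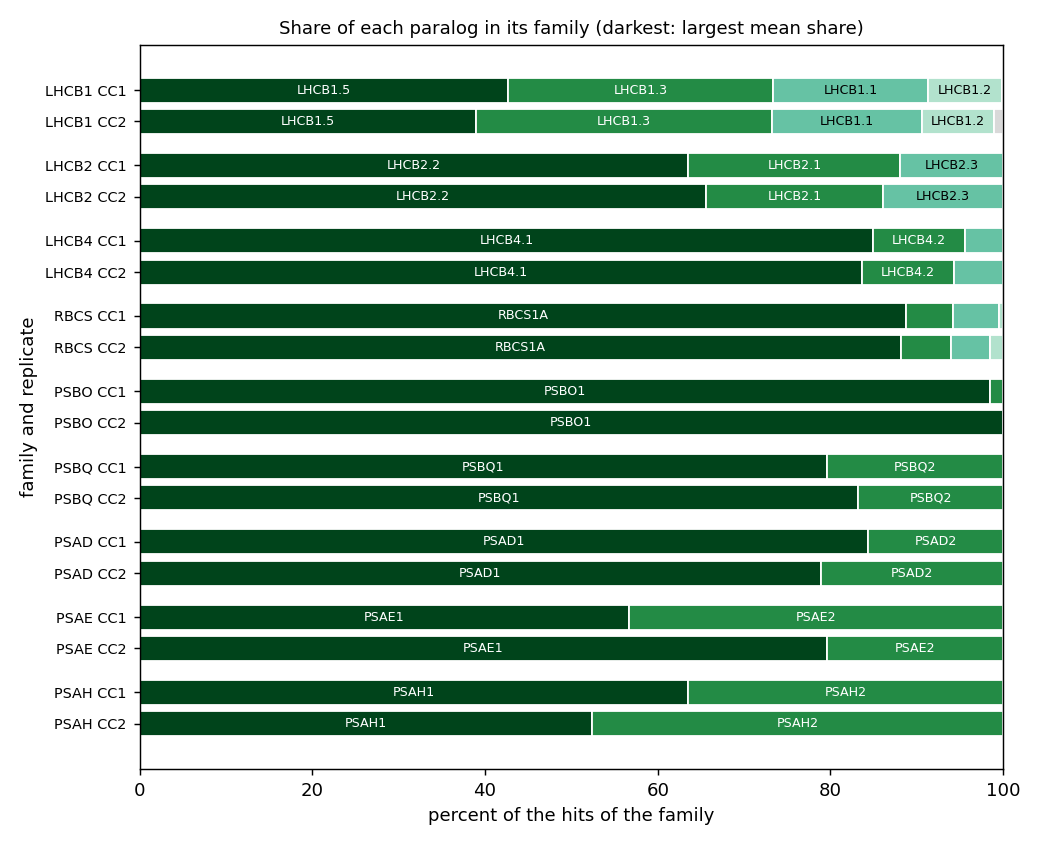
Share of each paralog in the hits of its family, in percent, for CC1 and CC2, with the darkest bar for the paralog of the largest mean share and shares under 7% unlabeled. RBCS1A (88.7 and 88.1%) and PSBO1 (98.5 and 99.9%) hold most hits of their families, and the split of PSAE moved most between the replicates (PSAE1, 56.7 and 79.5%).

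The nuclear subunits of photosystem II summed to 2288 HPM in CC1 and 2306 HPM in CC2 (2297 ± 12.4, SD, n = 2). PSBO, PSBP and PSBQ cap the water-splitting site on the lumen side. PSBO1 (AT5G66570), which holds its manganese cluster in place, had 485 HPM in CC1 and 459 HPM in CC2. PSBP1 (AT1G06680) had 235 and 293 HPM, PSBQ1 (AT4G21280) had 232 and 230 HPM, and PSBQ2 (AT4G05180) had 59.3 and 46.5 HPM. PSBR, which helps PSBP to bind, was the highest of the complex per kb (666 and 641), with 523 and 503 HPM. Among the small membrane subunits, PSBX (AT2G06520) had 335 HPM in CC1 and 380 HPM in CC2, and PSBW (AT2G30570), which stabilizes the complex with its antenna, had 301 and 296 HPM. PSBS (AT1G44575), the sensor of lumen acidity that sets off heat dissipation, was lower and nearly equal between replicates, with 90.9 and 92.3 HPM (59.8 and 60.7 per kb).

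The low genes of photosystem II were PSBY (AT1G67740) and PSBO2 (AT3G50820). PSBY, a small subunit made as a longer precursor, had 314 hits (20.6 HPM) in CC1 and 89 hits (5.99 HPM) in CC2 and was 3.44-fold higher in CC1. No other gene overlaps it and none of its windows matched another of the 47 genes. PSBO2, the second gene for the manganese-stabilizing protein, had 116 hits (7.59 HPM) in CC1 and 5.19 hits (0.349 HPM) in CC2, just above the limit of 5 hits for being listed. It was 21.7-fold higher in CC1, the largest difference among the 47 genes. The last 120 coding bases of the pair are given with the differing positions in capitals.
PSBO1 (chr5:26570005-26570124, plus strand): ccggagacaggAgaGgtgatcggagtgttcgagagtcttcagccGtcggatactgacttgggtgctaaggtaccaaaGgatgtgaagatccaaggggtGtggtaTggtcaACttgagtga
PSBO2 (chr3:18891008-18891127, minus strand): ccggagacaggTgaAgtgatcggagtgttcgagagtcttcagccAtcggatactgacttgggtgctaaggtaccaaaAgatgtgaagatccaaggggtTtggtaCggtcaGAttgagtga
They differed at 8 positions (93.3% identity) and shared no run longer than 32 bases, and 3.37% of the PSBO2 windows matched PSBO1 with up to 2 mismatches. Even so, the values of both were fractions in both replicates, and their sum was a whole number within 0.01 (7508 and 6825 hits), so that some hits had been shared out between them. PSBO2 took 1.54% of the family's hits in CC1 (95% Wilson interval 1.29 to 1.85%) and 0.0761% in CC2 (0.0313 to 0.171%). The sums of LHCB4, PSBQ and PSAD were whole in the same way.

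The nuclear subunits of photosystem I summed to 2331 HPM in CC1 and 2420 HPM in CC2 (2376 ± 62.8, SD, n = 2). PSAD and PSAE form the stromal ridge where ferredoxin docks. PSAD1 (AT4G02770) had 405 HPM in CC1 and 338 HPM in CC2, and PSAD2 (AT1G03130) had 74.9 and 90.5 HPM. PSAE1 (AT4G28750) had 125 HPM in CC1 and 185 HPM in CC2, whereas PSAE2 (AT2G20260) had 95.3 HPM in CC1 and 47.5 HPM in CC2. The paralogs of PSAE thus moved in opposite directions, PSAE2 was 2.01-fold higher in CC1, and their sum was nearly equal (220 and 232 HPM). PSAE2 shares no window with PSAE1, but 63 bp of it overlap AT2G20270 on the other strand, which had 2445 hits in CC1 and 1029 hits in CC2. That gene and PSAE2 (1455 and 706 hits) were both lower in CC2. Because the libraries were not stranded, the hits of the overlap cannot be told apart, and its part in the result was not tested.

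Among the remaining subunits of photosystem I, PSAF (AT1G31330), the docking site of plastocyanin, had 321 HPM in CC1 and 318 HPM in CC2, and the lumenal PSAN (AT5G64040) had 224 and 201 HPM. PSAG (AT1G55670) and PSAK (AT1G30380) flank the antenna belt, and PSAG had 196 and 286 HPM and PSAK 193 and 147 HPM. At the side where LHCII can dock, PSAL (AT4G12800) had 291 and 333 HPM, PSAO (AT1G08380) had 151 and 152 HPM, PSAH1 (AT3G16140) had 162 and 169 HPM and PSAH2 (AT1G52230) had 93.3 and 153.8 HPM. PSAH2 and PSAG were 1.65- and 1.46-fold higher in CC2, and PSAK was 1.31-fold higher in CC1. PSAH1 is overlapped over 788 bp and PSAH2 over 174 bp by genes on the other strand, which had at most 247 hits.

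With paralogs summed, the subunits of photosystem I lay within a narrow range per kb. The highest of its 9 subunits was 2.36 times the lowest in CC1 and 2.12 times in CC2, and the coefficient of variation over subunits was 25.9 and 27.9%. In photosystem II the highest of 8 subunits was 39.5 times the lowest in CC1 and 130.5 times in CC2, with coefficients of variation of 73.6 and 73.2%. PSBY set the lower end in photosystem II. LHCB1, at 1934 and 2104 HPM per kb, was above every other subunit, and the Rubisco small subunit followed with 908 and 977 HPM per kb. Subunits of 1 complex are not replicates of each other, and these spreads are descriptions.

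**Figure D3:**
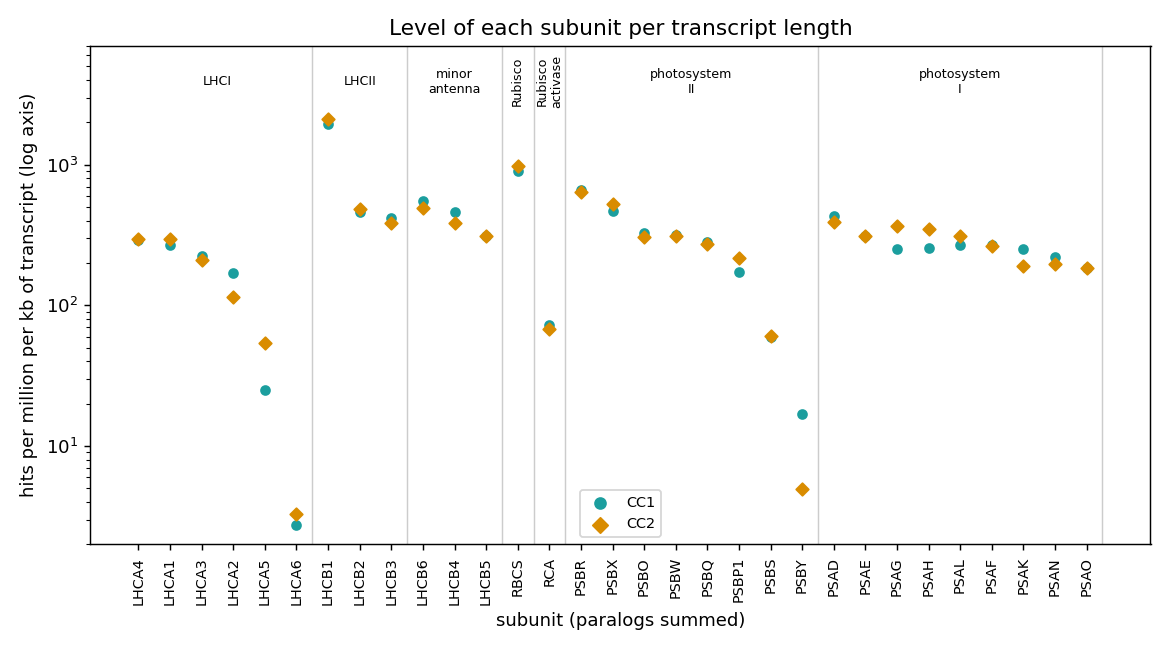
Level of each subunit in CC1 (circles) and CC2 (diamonds), in hits per 1000000 listed hits and kb of transcript on a log axis, with paralogs summed and subunits ordered within each complex. Photosystem I spans 2.36-fold in CC1 and 2.12-fold in CC2, while PSBY, LHCA5 and LHCA6 lie far below the other subunits of their complexes.

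When all 47 genes were ordered by their mean level per kb, the replicate ranges of neighbors overlapped in 34 of the 46 adjacent pairs, so that most of this order is not resolved. At the top, the ranges of LHCB1.5, RBCS1A and PSBR did not overlap on this scale, but the order of these 3 genes changed with coding length, as given above. Over 100 HPM per kb was reached by 30 of the genes in both replicates. At the lower end, PSBO2, LHCA6, RBCS1B, PSBY and LHCB1.4 had means of 2.99 to 11.6 HPM per kb. HPM and transcript length had a Spearman's rho of −0.03 over the 47 genes, given as a description.

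The replicates gave almost the same levels for most of the genes. The median absolute log2 ratio was 0.19 (1.14-fold), against 0.59 over all 13426 loci listed in both. At least 1.5-fold apart were 7 of the 47 genes and 50.2% of all loci. Across the 47 genes, the levels of CC1 and CC2 had a Spearman's rho of 0.980 and a Pearson's r of 0.902 on log2 HPM. These describe the spread of the genes, which share both libraries. According to the paper, the cDNA of CC1 was slightly smaller and lower in yield than that of CC2. The paper also reports fungal sequences in CC1 alone, and considers an effect on the alignments unlikely. The part of either in the differences between the replicates was not tested. By complex, the sums differed by at most 1.12-fold (minor antenna), and the sum of all 47 genes was 12223 HPM in CC1 and 12413 HPM in CC2. In CC2, 24 genes were higher and in CC1, 23. With edgeR's TMM scaling or DESeq2's size factors, the split was 30 and 17, so that the direction of genes with nearly equal levels depends on the scaling. Of all 13426 loci listed in both, 6231 were higher in CC2 and 7195 in CC1 by listed totals. The split of all loci was 6800 and 6626 with TMM, and 6710 and 6716 with DESeq2's size factors.

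At least 2-fold apart were 6 of the 47 genes. Higher in CC2 were LHCB1.4, RBCS1B and LHCA5, which is 3 of 47 where 14.7% of all loci listed in both were called. Higher in CC1 were PSBO2, PSBY and PSAE2, again 3 of 47 where 15.5% of all loci were called. PSAE2 fell under the limit with either of the other scalings. Among the 2685 loci of the highest quintile by mean level, where 38 of the 47 genes lay, the genes had a median difference of 1.11-fold and 1 of them was at least 2-fold apart. All loci of that quintile had a median of 1.21-fold, and 4.62% were at least 2-fold apart. The gene of that quintile at least 2-fold apart was PSAE2. In the lower quintiles, from the lowest up, 1 of 2, 3 of 3, 0 of 1 and 1 of 3 of the genes were at least 2-fold apart, beside 52.0%, 46.2%, 30.1% and 17.8% of all loci.

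**Figure D4:**
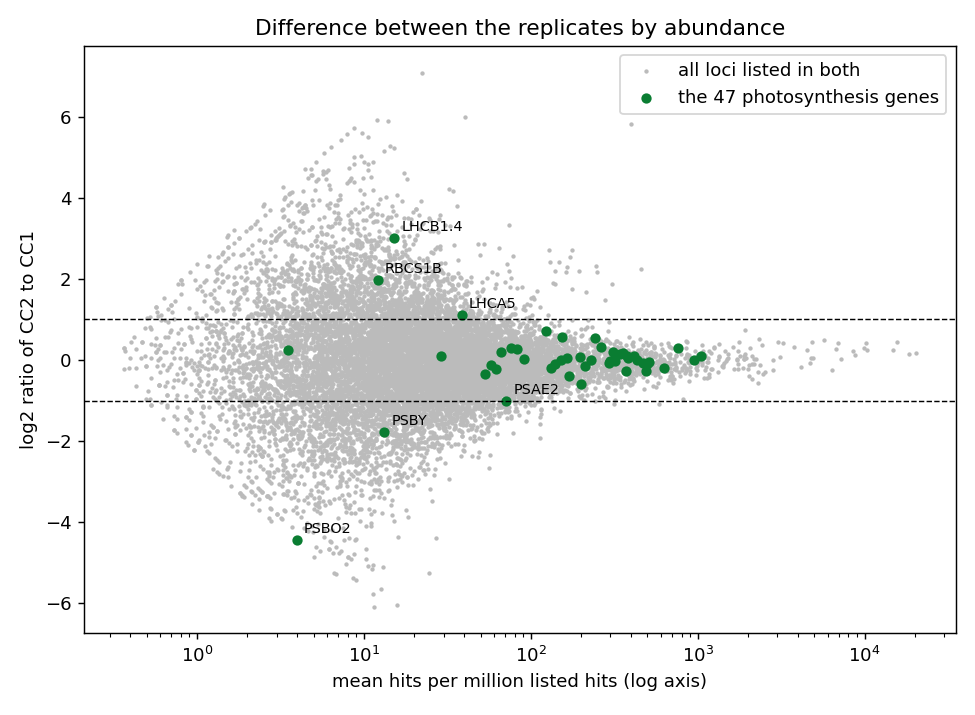
Log2 ratio of CC2 to CC1 against the mean level in hits per 1000000 listed hits on a log axis, for all 13426 loci listed in both replicates (gray) and the 47 genes (green), with dashed lines at 2-fold. The 6 named genes lie outside the lines at low to moderate levels, and the genes above 100 HPM lie within 1.65-fold.

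The letters before the gene starts were compared with motifs known from promoters of photosynthesis genes. In the 250 bases before the most upstream annotated start, on both strands, the GLK motif CCAATC was found at 12 of the 47 genes (25.5%), against 10.2% of 27443 nuclear protein-coding genes. It occurred at 5 of 9 LHCII genes, 3 of 6 LHCI genes and none of the 12 photosystem I genes. The G-box core CACGTG was found at 9 genes (19.1% against 6.49%) and the I-box GATAAG at 11 (23.4% against 12.3%). A CCA1 site, AAAAATCT or AACAATCT, was found at 6 (12.8% against 8.38%), and the evening element AAAATATCT at LHCA5 alone (2.13% against 2.36%). TATAAA on the coding strand was found at 12 genes (25.5%), against 32.9% of all. No motif contains another, but CCAATC and AACAATCT share the letters CAATC. No match says only that the letters are not in this window, and a start annotated too far upstream would place the window before the promoter. This may be so for RBCS1A, where no motif was found, and would also lower its level per kb of transcript. Genes of other complexes also held none of the motifs, among them LHCA2, LHCB5, PSBO1, PSBR and PSAL. RBCS1B and RBCS3B held no motif either. Their annotated transcripts run on past the coding ends given above, to chr5:15383167 and chr5:15376988, and that length lowers their levels per kb.

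Other genes of photosynthesis were present as well, from lists chosen for this purpose. All 12 genes of electron transport and ATP synthase were listed in both replicates, with a sum of 2056 ± 25.6 HPM (SD, n = 2), led by the plastocyanin gene PETE2 (606 and 551 HPM) and the ferredoxin gene FD2 (445 and 474 HPM). All 14 Calvin cycle genes were listed, with 2514 ± 84.6 HPM, led by the aldolase gene FBA1 (605 and 531 HPM) and by CP12-1 (273 and 381 HPM), a regulator of the cycle. None of these 26 genes was 2-fold apart, beside 30.2% of all loci listed in both and 4.62% of those in the highest quintile by mean level. All 13 genes of chlorophyll synthesis were listed, with 1117 ± 164 HPM, led by CRD1 (246 and 254 HPM) and PORB (236 and 144 HPM). Of these 13, 2 were at least 2-fold higher in CC1, where 15.5% of all loci listed in both were called. The medians of these lists were 86.7, 120.5 and 64.7 HPM, below the 200.6 HPM of the 47 genes. Per kb the medians were 65.9, 65.5 and 30.0 HPM, against 195 HPM.

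Genes for import and for assembly had medians of 67.96 and 49.96 HPM, also below the 200.6 HPM of the 47 genes. Per kb the medians were 18.4 and 38.0 HPM, against 195 HPM, so that the order of these lists depends on the scale. Of 7 genes for import and insertion of antenna proteins, 6 were listed in both, with the insertase gene ALB3 (79.2 and 77.3 HPM) and the import receptor gene TOC159 (61.2 and 89.9 HPM) at the top, and CPSRP43, which escorts antenna proteins through the stroma, was listed in CC2 only (408 hits). Of 11 assembly and accessory genes, 9 were listed in both. ELIP2, for a stress-induced relative of the antenna proteins, had 357 and 457 HPM, whereas its paralog ELIP1 was unlisted, and PSBTN, a small subunit of photosystem II, had 220 and 198 HPM. PSB28 (105 and 509 hits, 4.98-fold) and HCF136 (104 and 478 hits, 4.72-fold), both for assembly factors of photosystem II, were higher in CC2.

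Of 13 regulators of photosynthesis genes, 10 were listed in both replicates, with a median of 19.8 HPM. GUN1, a plastid protein of signaling to the nucleus, had 61.3 HPM in CC1 and 48.3 HPM in CC2. CCA1, a clock transcription factor that binds LHCB promoters, had 55 hits (3.60 HPM) in CC1 and 966 hits (65.0 HPM) in CC2 and was 18.0-fold higher in CC2, while its close relative LHY had 236 and 337 hits. GLK2 had 216 hits (14.2 HPM) in CC1 and 64 hits (4.31 HPM) in CC2, and its paralog GLK1 was unlisted. HY5, a transcription factor of light responses, had 260 and 356 hits. Of the GATA factors, CGA1 had 73 and 49 hits and GNC was unlisted, and PIF3, a phytochrome-interacting factor, was listed in CC2 only with 24 hits. The sigma factors of the plastid polymerase ranged from SIGE (53 and 94 hits) through SIGB (272 and 221) and SIGA (370 and 287) to SIGF (463 and 246 hits). The log2 ratio of CC2 to CC1 was 4.17 for CCA1 and −1.72 for GLK2. The median log2 ratio of the 47 genes was 0.01, and a link between the regulators and these genes was not tested.

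Of 12 plastid-encoded partners, 6 were listed in both replicates, with a sum of 85.3 HPM in CC1 and 75.0 HPM in CC2. psaB, for a reaction center protein of photosystem I, had 698 and 340 hits, psbA, for one of photosystem II, had 372 and 137 hits, and rbcL, the Rubisco large subunit, had 162 and 250 hits. Plastid messages mostly lack the poly(A) tails that primed the libraries, and these values cannot be set against those of nuclear genes.

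**Figure D5:**
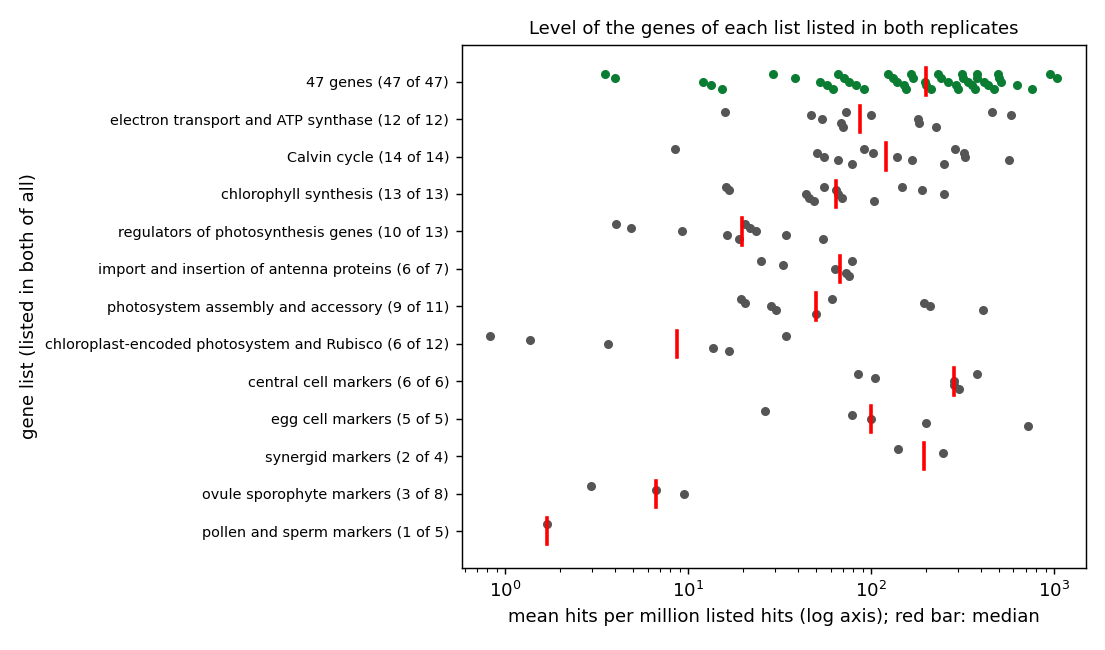
Mean level over both replicates of each gene listed in both, in hits per 1000000 listed hits on a log axis, for the 47 genes (green) and for each other list (gray), with the median as a red bar and the number listed in both of all genes in parentheses. The medians are 200.6 HPM for the 47 genes, 120.5 HPM for the Calvin cycle, 86.7 HPM for electron transport and ATP synthase, and 6.70 HPM for ovule sporophyte markers.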

How the data were processed

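The deposited values are expected counts, an estimated number of hits for each locus, which the authors did not scale by depth or length. Per the study's methods, the authors corrected 50 bp SOLiD reads, aligned them to TAIR10 with TopHat 1.2 (named also in the submitters' processing notes), weighted multiple alignments, divided ambiguous hits among loci in proportion to the unambiguous ones, and dropped transcripts with under 5 hits or no hit in the last 250 bp. An unlisted locus is therefore not a measured 0, and it entered sums as 0. Reads were not stranded, and cDNA was primed on poly(A) tails.

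Here, HPM was computed per replicate and summarized by the mean and SD. The design text calls both pools biological replicates without saying how they were separated, so that the SD may be partly technical. With 1 condition, no test was run. Members and lists were chosen with earlier results of these data known. All 47 genes were named; of the other lists, the 2 genes with the most HPM, those at least 4-fold apart and any regulator were named. The remaining genes named (rbcL, CPSRP43, ELIP1, STK, SHP2 and unlisted markers) were chosen after their values were seen. Transcript lengths, positions and sequence were taken from TAIR10.1 as annotated by RefSeq, and not from Landsberg *erecta*. Protein identities were not analysed here. Ratios used no pseudocount. Alternatives were other hit minimums, denominators, fold limits and scalings (edgeR 4.0.16 with hits rounded to whole numbers, DESeq2 1.42.0 likewise), paralogs summed, and each replicate alone. Coding length in place of transcript length, and leaving out genes with over 5% shared windows, were added after seeing the data. The summaries were checked on simulated data. Python 3.11.15, pandas 2.3.3, numpy 2.4.6, matplotlib 3.10.9 and R 4.3.3 were used.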

Additional observations from a re-analysis of the deposited data

How the results depend on the processing

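No paired analysis was possible because there is only 1 condition. Leaving the 20 loci with the most hits out of the denominator raised all sums, to 1528 HPM for LHCI, 4169 for LHCII, 2004 for the minor antenna, 1430 for Rubisco, 169 for Rubisco activase, 2794 for photosystem II, 2890 for photosystem I and 14985 for all 47 genes. Leaving out organelle loci moved photosystem II to 2314 HPM, beyond its small spread of 12.4 HPM. With 1 replicate left out at a time, sums were 1246 to 1266 HPM (LHCI), 3325 to 3527 (LHCII), 1558 to 1740 (minor antenna), 1128 to 1222 (Rubisco), 134 to 143 (Rubisco activase), 2288 to 2306 (photosystem II), 2331 to 2420 (photosystem I) and 12223 to 12413 (all 47 genes). Ratios need both replicates, so that none could be left out there. At 4-fold in place of 2-fold, 2 genes in place of 6 were called (9.78% of all loci). The count was 4 to 7 under the other alternatives, with 4 among the 41 values left when near-identical paralogs were summed and 4 among the 36 genes with at most 5% shared windows. Per kb of coding length, the median level of the 47 genes was 358 HPM in place of 195 HPM. A minimum of 10 or 20 hits left 46 of the 47 genes listed in both, without PSBO2. By coding length, RBCS1A (1914 HPM) and PSBR (1212 HPM) moved above LHCB1.5 (1195 HPM). With 1 condition and 2 pools, differences between the replicates have no test, and the values of near-identical paralogs remain estimates.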
